A study of Homo sapiens with 36 samples.

Results

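The genes described here are 9 genes known for carrying drugs out of cells or for drug resistance: the ABC transporters ABCB1, ABCC1, ABCC2, ABCC3, ABCC4, ABCC5, ABCC10 and ABCG2, and MVP, the major vault protein. They were chosen by name and by no rule on their values, though with earlier results of these data known. All 9 were found among the 58219 genes of the RNA data and the 43582 genes of the ribosome footprint data. The cells were WiT49, an established line from an anaplastic Wilms tumor, the childhood kidney cancer, so every library comes from 1 line. The drug was actinomycin D (actD), an antibiotic that blocks transcription, given at 2 nM, and the controls had only dimethyl sulfoxide (DMSO). Exposure lasted 6 h or 72 h, or extended over 2 weeks in 2 cycles of 7 days, in which 3 days with the additive preceded 4 days in medium alone. Each time and treatment has 3 libraries of total RNA and 3 of ribosome footprints, the short RNA stretches covered by ribosomes, which gives 36 libraries in 12 groups. Nothing in the labels says that replicates came from separate cultures, so p-values measure only the spread between these samples. In such bulk RNA, fewer cells that make a transcript and less of it per cell cannot be told apart.

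ABC transporters are membrane pumps that use ATP to move substrates out of the cell. ABCB1 (P-glycoprotein) exports large, mostly hydrophobic drugs and is the classical exporter of actinomycin D, whereas many ABCC proteins export drugs conjugated to glutathione or glucuronate, or anions such as nucleotides. MVP is the main protein of vaults, large ribonucleoprotein particles that were first linked to drug resistance through a lung cancer line, and it is not itself a pump.

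RNA libraries held 40221994 to 69240041 counts and footprint libraries 152556 to 1281039. Of 10 markers of Wilms tumor and nephron progenitors, 4 lay at or above 1 per kb of exon in the vehicle libraries at each time (WT1, NCAM1 and IGF2 among them throughout), and of 9 blood, endothelial and neural markers 0 did. Across libraries the first list summed to between 158.5 and 344.4 per kb, and the second to between 0.292 and 1.18, with HBB at 0 in every RNA library. IGF2 made up most of the first sum, at 211.2, 240.4 and 175.1 per kb in vehicle at 6 h, 72 h and 2 weeks. SIX2, CITED1, EYA1, PAX2 and SALL1 reached 1 per kb in vehicle at no time. The 2-week RNA libraries carry contradictory labels, since the title and treatment entry of each give 1 treatment and its library name, also its column name, the other. They are called "named actd" and "named dmso" here, and each log2 fold change of RNA at 2 weeks has the opposite sign if the titles are right.

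ABCC1 had the highest RNA level of the 9 genes at every time, and ABCC1, ABCC4, ABCC5 and ABCC10 were the 4 counted as expressed. Expressed means a mean of at least 1 TMM-scaled CPM (counts relative to library size) per kb of merged exon in the vehicle libraries, a scale on which genes of different length can be set side by side. The same 4 genes passed in the actD libraries of each time. Levels were scaled within each time's data, so differences in level between times were not tested. All levels and fold changes are relative to the library, so a change in the total RNA per cell would not show in them.

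In the vehicle libraries at 6 h, ABCC1 stood at 7.44 ± 0.992 per kb (SD, n = 3), ABCC4 at 4.90 ± 0.271, ABCC5 at 3.46 ± 0.214 and ABCC10 at 2.26 ± 0.287. MVP followed at 0.450 ± 0.105, ABCB1 at 0.284 ± 0.0284, ABCC2 at 0.0848 ± 0.00471, ABCC3 at 0.0777 ± 0.0225 and ABCG2 at 0.0195 ± 0.0175. The vehicle libraries of each gene lay wholly above those of the next gene in this order, except that ABCC2 and ABCC3 overlapped.

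At 72 h the order was the same, with ABCC1 at 5.47 ± 0.651 per kb, ABCC4 at 4.32 ± 0.575, ABCC5 at 2.72 ± 0.718, ABCC10 at 1.27 ± 0.0735, MVP at 0.245 ± 0.114 and ABCB1 at 0.161 ± 0.081. ABCC1 and ABCC4 overlapped there, as did MVP with ABCB1, ABCB1 with ABCC2, and ABCC3 with ABCG2. At 2 weeks, in the libraries named dmso, ABCC1 stood at 7.10 ± 0.23 per kb, ABCC5 at 4.57 ± 0.409, ABCC4 at 3.80 ± 0.282, ABCC10 at 2.63 ± 0.359, MVP at 0.707 ± 0.181 and ABCB1 at 0.0819 ± 0.0609. ABCC5 and ABCC4 exchanged places there but overlapped, and the 4 lowest genes, ABCB1, ABCC2, ABCC3 and ABCG2, each overlapped with the next.

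Among protein-coding genes ranked by level per kb, ABCC1 was at percentile 75.5 at 6 h, 73.1 at 72 h and 79.2 at 2 weeks, and ABCB1 at 35.0, 33.8 and 28.1. Within the ABC family of 48 genes, of which 20, 21 and 23 were expressed at the 3 times, ABCC1 ranked 7, 8 and 7, and ABCB1 30, 30 and 31. The family's highest genes were ABCF2 at 6 h (32.7 per kb) and ABCE1 at 72 h (25.4), which have no membrane part and act with ribosomes. Summed over the 9 genes, the level per kb was 17.0 ± 1.22 in actD and 19.0 ± 1.40 in DMSO at 6 h, 12.2 ± 1.19 and 14.3 ± 0.694 at 72 h, and 19.1 ± 0.192 and 19.0 ± 0.72 at 2 weeks (SD, n = 3 each).

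**Figure D1:**
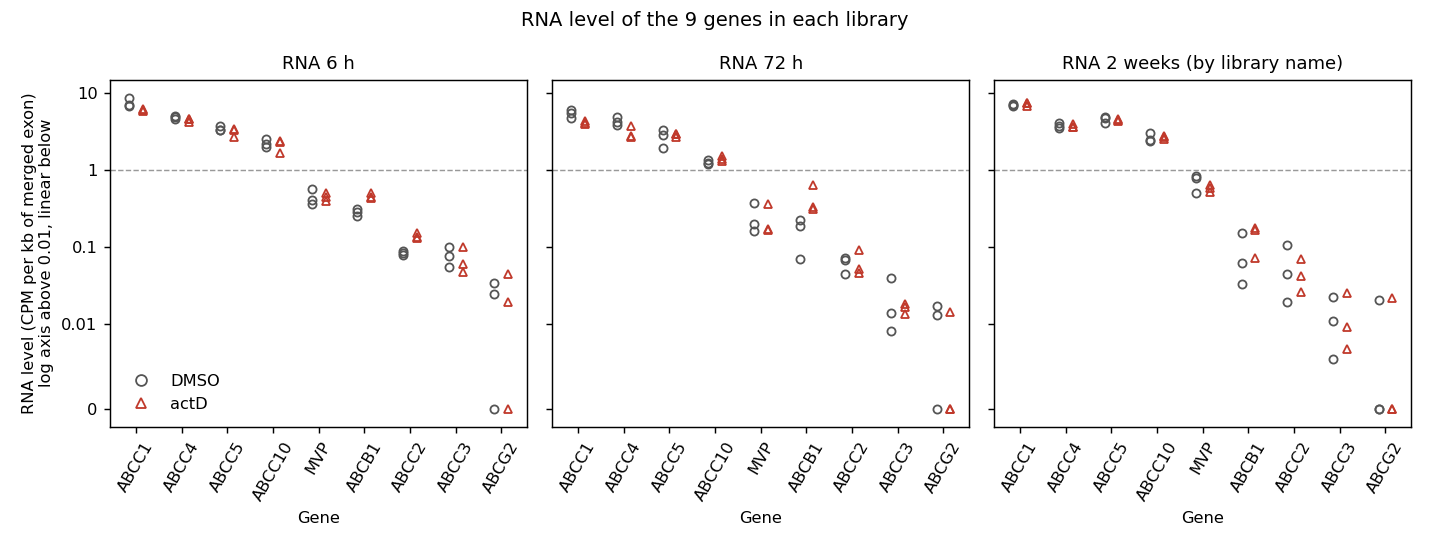
RNA level of each gene in each library, in CPM per kb of merged exon (vertical axis, logarithmic above 0.01 and linear below), with 1 panel per time, circles for DMSO and triangles for actD. The dashed line marks the level of 1 per kb, and at each time ABCC1, ABCC4, ABCC5 and ABCC10 lie above it in every library while the other 5 genes lie below it.

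No member passed the test at any time. The quasi-likelihood test of edgeR, with p-values adjusted over all genes by the Benjamini-Hochberg method, called 0 of 8 members tested at 6 h, 0 of 7 at 72 h and 0 of 7 at 2 weeks, at an adjusted p under 0.05, and DESeq2 also called 0. Over all genes the same rule called 0% at 6 h, 0.00472% at 72 h and 0% at 2 weeks. An unadjusted p under 0.05 was reached by 3 members at 6 h, where 8.21% of all genes reached it, by 1 at 72 h (13.1% of all genes) and by 0 at 2 weeks (8.93%). The actD and DMSO libraries did not overlap for 3 members at 6 h (15.8% of all genes), 3 at 72 h (20.9%) and 0 at 2 weeks (15.7%). By direction, actD was higher for 2 at 6 h (7.66% of all genes) and 1 at 72 h (10.5%), and lower for 1 at 6 h (8.17%) and 2 at 72 h (10.3%). The median log2 fold change of the tested members was -0.10 at 6 h, 0.04 at 72 h and 0.00 at 2 weeks, beside 0.02, 0.02 and -0.02 over all genes tested. Members that failed the filter on low counts were ABCG2 at every time and ABCC3 at 72 h and 2 weeks.

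The members whose groups separated at 6 h or 72 h were ABCB1, ABCC1, ABCC2 and ABCC4. RefSeq's promoter sequences for GRCh38.p14, windows of 300 bases from 250 before to 50 after an annotated start, were at hand for 7 of the 9 members, not ABCC1 or ABCC3. The 250 bases before the start are shown for ABCB1, ABCC2 and ABCC4 because they are the separated members with an entry and differ widely in base composition. All are written 5′ to 3′ on the gene's own strand, and capitals mark the CCAAT box in either orientation, searched for as ATTGG on both strands. ABCB1 is at chr7:87600885-87601134 on the minus strand, ABCC2 at chr10:99782390-99782639 on the plus strand and ABCC4 at chr13:95301452-95301701 on the minus strand.
ABCB1: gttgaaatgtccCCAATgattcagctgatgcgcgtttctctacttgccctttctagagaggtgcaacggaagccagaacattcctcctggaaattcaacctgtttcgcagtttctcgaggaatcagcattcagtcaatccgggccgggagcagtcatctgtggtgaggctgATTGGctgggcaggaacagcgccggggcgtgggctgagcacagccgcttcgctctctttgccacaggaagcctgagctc
ABCC2: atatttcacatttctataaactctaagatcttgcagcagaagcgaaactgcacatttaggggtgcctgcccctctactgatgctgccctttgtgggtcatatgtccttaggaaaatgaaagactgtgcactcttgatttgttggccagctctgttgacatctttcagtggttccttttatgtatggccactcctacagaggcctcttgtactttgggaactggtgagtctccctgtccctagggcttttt
ABCC4: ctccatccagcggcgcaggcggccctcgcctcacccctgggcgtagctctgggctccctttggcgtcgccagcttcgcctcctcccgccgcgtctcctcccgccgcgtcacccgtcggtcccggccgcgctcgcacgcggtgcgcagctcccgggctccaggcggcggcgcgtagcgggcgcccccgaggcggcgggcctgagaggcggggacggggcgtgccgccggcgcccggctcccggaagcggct

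The ABCB1 window held the box as ATTGG, its inverted orientation, at 79 bases before the start and as CCAAT at 238 bases before it, and 34.6% of all 35116 windows held at least 1 in either orientation. The inverted box is known as a binding site of the factors NF-Y and YB-1 in the ABCB1 promoter. Actinomycin D binds DNA mainly at GpC steps, and the full 300-base windows held 30 such steps in ABCB1, 16 in ABCC2 and 54 in ABCC4, against a median of 25 over all windows. GC content was 55.3% for ABCB1, 45.0% for ABCC2 and 79.7% for ABCC4, and the ABCC4 window stood at percentile 97.4 for GC content and 98.4 for GpC steps. Among members whose groups did not separate, windows held 38 GpC steps in ABCC5, 16 to 44 in ABCG2, 20 and 33 in ABCC10 and 20 to 29 in MVP. An MVP window held ATTGG at 206 bases before the start, and those of ABCC5, ABCG2 and ABCC10 held no CCAAT box. The GC box, GGGCGG on either strand, was in windows of ABCC5, ABCG2 and ABCC10, in none of those shown and in 45.0% of all windows. These counts describe the windows, and their relation to RNA levels was not tested. A second ABCB1 window of the same RefSeq set lies further upstream, at chr7:87713246-87713545, and held 10 GpC steps and no CCAAT box in either orientation.

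ABCB1, the classical exporter of actinomycin D, had higher CPM in each actD library than in any DMSO library at 6 h and 72 h. But it is among the lowly expressed members and did not pass the test. At 6 h it measured 1.47, 1.68 and 1.79 CPM in the DMSO libraries and 2.58, 2.94 and 2.54 CPM in the actD libraries from 95 to 115 counts against 149 to 185. The groups did not overlap. This gave a log2 fold change of 0.71 (SE 0.196, 95% interval 0.25 to 1.16), with an unadjusted edgeR p of 0.00684 and an adjusted p of 0.457.

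At 72 h ABCB1 measured 1.31, 1.08 and 0.406 CPM in DMSO and 1.90, 1.79 and 3.75 CPM in actD. DMSO library 3 was the lowest and actD library 3 the highest, and again the groups did not overlap. The log2 fold change was 1.43 (SE 0.511, interval 0.24 to 2.61), with an adjusted p of 0.324 from edgeR. It was 1.00 without actD library 3 and 1.05 without DMSO library 3. At 2 weeks ABCB1 measured 0.873, 0.359 and 0.194 CPM in the libraries named dmso and 1.02, 0.419 and 0.955 CPM in those named actd, and the groups overlapped. The difference there was 0.73 (SE 0.589, interval -0.62 to 2.09, edgeR adjusted p = 0.732).

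ABCB1 lies at chr7:87503633-87713323 on the minus strand, and RUNDC3B overlaps its span on the other strand with 0 shared exon bases. The RNA kits are stranded per the labels, but whether the counting used strand is not given in the sources used here. RUNDC3B had 30, 28 and 88 counts in DMSO and 38, 71 and 459 in actD at 72 h. Its highest library there was also the highest for ABCB1. At 6 h it had 68, 73 and 49 counts in DMSO and 112, 53 and 104 in actD. The library highest for ABCB1 at 6 h, actD library 2, was the lowest of the actD libraries for RUNDC3B. The log2 fold change of RUNDC3B was 1.93 at 72 h (SE 0.868, edgeR adjusted p = 0.402) and 0.58 at 6 h (SE 0.347, adjusted p = 0.72). The part of RUNDC3B in the ABCB1 values was not tested.

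ABCC1 (MRP1), which exports glutathione conjugates and anthracyclines, was lower in every actD library than in every DMSO library at 6 h and 72 h, by less than a fold of 1.5 in the mean, and did not pass the test. At 6 h it measured 52.8, 51.2 and 65.0 CPM in DMSO and 46.7, 46.4 and 45.0 CPM in actD. The groups did not overlap, and DMSO library 3 stood above the rest. Its log2 fold change was -0.29 (SE 0.122, interval -0.57 to -0.01, edgeR adjusted p = 0.598).

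At 72 h ABCC1 measured 36.3, 41.8 and 46.2 CPM in DMSO and 29.8, 30.8 and 33.2 CPM in actD. These groups did not overlap either, and the log2 fold change was -0.41 (SE 0.183, interval -0.83 to 0.02, edgeR adjusted p = 0.40). At 2 weeks the values were 52.3, 55.7 and 53.3 CPM in the libraries named dmso and 52.0, 57.4 and 56.8 CPM in those named actd, which overlapped. The difference was 0.04 (SE 0.101, interval -0.19 to 0.27, edgeR adjusted p = 0.92). As a share of the summed level of the 9 genes, ABCC1 held 39.1% in DMSO and 35.8% in actD at 6 h. At 72 h it held 38.2% and 33.9%. At 2 weeks it held 37.5% in the libraries named dmso and 38.3% in those named actd.

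ABCC2 (MRP2), which carries conjugates into bile in the liver, was higher in every actD library at 6 h, at a level far below the threshold for expression. It measured 0.664, 0.627 and 0.701 CPM in DMSO and 1.07, 1.01 and 1.19 CPM in actD, from 43, 40 and 45 counts against 66, 64 and 70. The groups did not overlap. This was a log2 fold change of 0.72 (SE 0.244, interval 0.16 to 1.28), with an edgeR adjusted p of 0.556.

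At 72 h the ABCC2 groups overlapped, at 0.347, 0.531 and 0.565 CPM in DMSO and 0.412, 0.721 and 0.360 CPM in actD, with a log2 fold change of 0.04 (SE 0.399, edgeR adjusted p = 0.974). At 2 weeks they overlapped too, and the difference was -0.30 (SE 0.664, adjusted p = 0.913). ABCC3 (MRP3), a basolateral exporter of glucuronides, had between 27 and 62 counts per library at 6 h, between 4 and 26 at 72 h and between 3 and 14 at 2 weeks. It was tested at 6 h, where its groups overlapped and the log2 fold change was -0.15 (SE 0.379, edgeR adjusted p = 0.957).

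ABCC4 (MRP4) and ABCC5 (MRP5) export cyclic nucleotides and nucleotide analogues, and of the pair ABCC4 was lower in every actD library at 72 h. ABCC4 measured 36.2, 32.9 and 42.7 CPM in DMSO and 24.1, 23.2 and 32.4 CPM in actD at that time. The groups did not overlap, though the highest actD library lay just below the lowest DMSO library. The log2 fold change was -0.49 (SE 0.216, interval -0.99 to 0.02), with an edgeR adjusted p of 0.395.

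At 6 h ABCC4 measured 44.2, 43.0 and 39.7 CPM in DMSO and 40.2, 40.1 and 36.4 CPM in actD, which overlapped, and the log2 fold change was -0.12 (SE 0.106, edgeR adjusted p = 0.825). At 2 weeks it measured 32.1, 30.8 and 35.5 CPM in the libraries named dmso and 34.9, 31.9 and 31.8 CPM in those named actd. These also overlapped, and the difference was 0.00 (SE 0.107, interval -0.24 to 0.25).

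ABCC5 overlapped between treatments at every time. At 6 h it measured 38.1, 38.2 and 42.4 CPM in DMSO and 39.0, 37.9 and 30.9 CPM in actD. At 72 h the values were 32.6, 38.6 and 22.3 against 30.7, 33.7 and 33.9. At 2 weeks they were 55.7, 54.1 and 46.9 in the libraries named dmso and 53.5, 52.0 and 49.3 in those named actd. Its log2 fold changes were -0.14 (SE 0.126), 0.07 (SE 0.237) and -0.02 (SE 0.11), with edgeR adjusted p-values of 0.834, 0.914 and 0.97. At 72 h DMSO library 3 was the lowest of the 6, and without it the log2 fold change was -0.12.

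**Figure D2:**
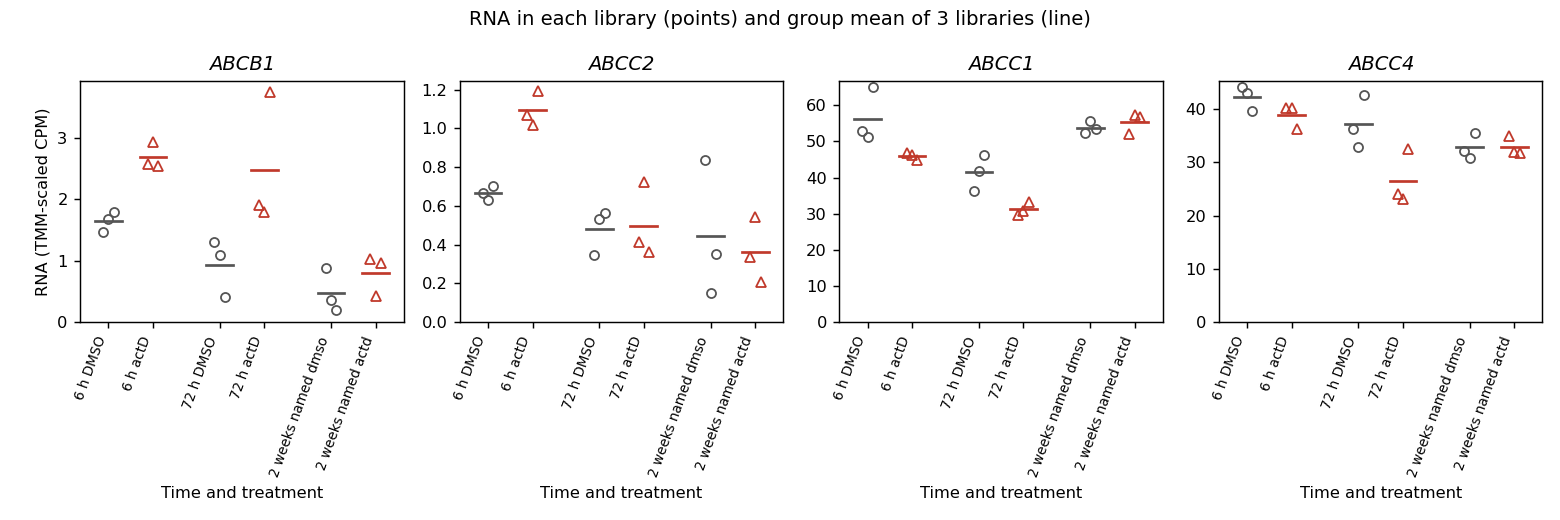
RNA of ABCB1, ABCC2, ABCC1 and ABCC4 in each library, in TMM-scaled CPM on linear axes that start at 0, with circles for DMSO, triangles for actD and a line at the mean of 3 libraries. Treatment at 2 weeks is by library name. ABCB1 actD libraries lie above the DMSO libraries at 6 h (2.54 to 2.94 against 1.47 to 1.79 CPM) and at 72 h, and at 2 weeks the groups of all 4 genes overlap.

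ABCC10 (MRP7), an exporter linked to taxane resistance, measured 17.8, 16.3 and 20.8 CPM in DMSO and 18.5, 19.4 and 13.7 CPM in actD at 6 h. At 72 h the values were 10.2, 9.75 and 10.9 against 10.7, 12.2 and 11.2 CPM. At 2 weeks they were 24.6, 20.2 and 19.1 CPM in the libraries named dmso and 22.4, 21.9 and 20.7 CPM in those named actd. The groups overlapped at each time. The log2 fold changes were -0.09 (SE 0.169), 0.15 (SE 0.195) and 0.03 (SE 0.127), with edgeR adjusted p-values of 0.943, 0.771 and 0.962. DLK2, on the other strand, shares 79 exon bases with ABCC10, 0.977% of its merged exons.

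ABCG2 (BCRP), an exporter that works as a dimer and marks some stem-like cells, was at the edge of detection. It had 8, 0 and 11 counts in DMSO and 6, 14 and 0 in actD at 6 h, 0, 3 and 6 against 0, 0 and 4 at 72 h, and 6, 0 and 0 in each group at 2 weeks. At 72 h a count of 0 allows up to 3 counts, which is 0.0435 to 0.0801 CPM depending on the library. No fold is given, and a difference was not detectable at this depth.

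MVP was below the expression threshold at every time. It measured 2.55, 2.26 and 3.49 CPM in DMSO and 3.08, 2.76 and 2.45 CPM in actD at 6 h. At 72 h the values were 0.988, 1.22 and 2.30 against 1.04, 1.02 and 2.21. At 2 weeks they were 5.15, 4.80 and 3.07 in the libraries named dmso and 3.62, 3.23 and 3.89 in those named actd. The groups overlapped each time. The log2 fold changes were 0.00 (SE 0.225), -0.09 (SE 0.463) and -0.28 (SE 0.227), with edgeR adjusted p-values of 1, 0.952 and 0.736. Counted over the longest transcript in place of all merged exons, or with a threshold of 0.5 per kb, MVP would bring the expressed members to 5 at 2 weeks. The antisense gene AC009133.1 overlaps the MVP span with 0 shared exon bases and had 144 to 3039 counts per RNA library. AC120114.4, a protein-coding gene on the same strand, shares 154 exon bases with MVP, 2.51% of the merged exons of MVP. It had 20 counts in DMSO library 3 at 6 h, and 22 in DMSO library 3 and 9 in actD library 3 at 72 h. Those libraries had the highest MVP values of their times. The other RNA libraries had 0 counts of AC120114.4, and its part in the MVP values was not tested.

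**Figure D3:**
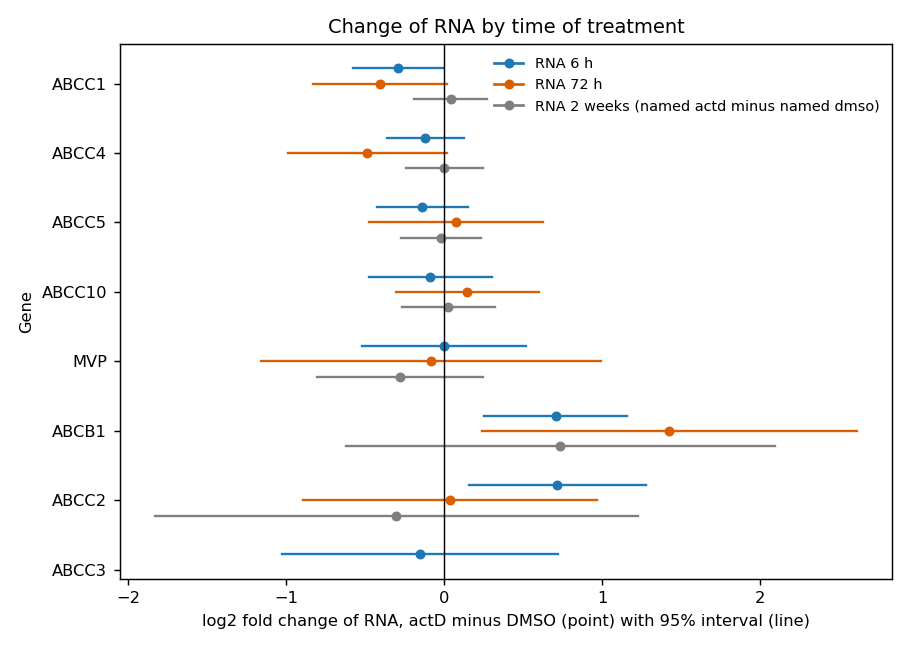
Log2 fold change of RNA, actD minus DMSO, from edgeR for each member and time in which it was tested, with 95% intervals (lines). The ABCB1 points lie at 0.71, 1.43 and 0.73 with the intervals at 6 h and 72 h above 0, and the 2-week points, with treatment by library name, of ABCC1, ABCC4, ABCC5 and ABCC10 lie between -0.02 and 0.04.

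No member's response was shown to differ between times. The treatment-by-time interaction in edgeR called 0 of 8 members for 72 h against 6 h (0.0165% of all genes called) and 0 of 8 for 2 weeks against 72 h (0.00431%), and DESeq2 also called 0. At an unadjusted p under 0.05 the counts were 0 (8.02% of all genes) and 1 (8.12%). The 1 member was ABCC1, with a difference of 0.44 for 2 weeks against 72 h (SE 0.187, interval 0.03 to 0.84, adjusted p = 0.59). For ABCB1 the difference was 0.71 for 72 h against 6 h (interval -0.52 to 1.94) and -0.70 for 2 weeks against 72 h (interval -2.51 to 1.10). With treatment taken from the titles the latter was -2.18 (edgeR adjusted p = 0.235). For ABCC4 the difference from 72 h to 2 weeks was 0.48 (SE 0.234, interval -0.03 to 0.99, edgeR adjusted p = 0.627).

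Across the 18 RNA libraries, after each time's mean was removed, the log2 CPM of ABCC1 and ABCC4 varied together, with a Pearson r of 0.65, while ABCB1 and ABCC1 had an r of -0.65. The other pairs of tested members lay between -0.49 (ABCB1 with ABCC4) and 0.40. The points share their libraries, so depth and composition enter both genes of a pair, and 9 of the 18 libraries received actD. Among 19404 genes, those most like ABCC1 were LRRN2 (r = 0.90), ANKRD44 (0.89) and DISC1 (0.88). Those most like ABCC4 were L3MBTL4 (0.95), OSBPL1A (0.94) and FRY (0.94).

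In the footprints, ABCC10 was the member with the most counts, although ABCC1, ABCC4 and ABCC5 had more RNA. Summed over all 18 footprint libraries, ABCC10 had 96 counts in 17 libraries, ABCC1 44 in 9, ABCC5 34 in 8, ABCC4 2 in 1 and ABCC3 2 in 2. ABCB1, ABCC2, ABCG2 and MVP had 0 in every library, which allows up to 3 counts per library, or 2.70 to 37.3 CPM.

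Had each member held the same share of coding counts in footprints as in RNA, ABCC10 would have had 36.8 counts, ABCC1 108.2, ABCC5 95.6, ABCC4 83.3, MVP 5.78, ABCB1 3.81, ABCC2 1.32, ABCC3 0.61 and ABCG2 0.117. ABCC10 thus lay above its RNA share, as did ABCC3 with its 2 counts, and ABCC1, ABCC5 and ABCC4 lay below theirs. Coding genes had a median footprint-to-RNA share of 0.188 at 6 h, 0.375 at 72 h and 0.425 at 2 weeks, and 42.0%, 26.0% and 28.1% of them were at 0, so values below the RNA share were common. The miRNA gene MIR6780B lies in an ABCC10 intron and had 1 footprint count in all. DLK2, which shares 79 exon bases with ABCC10, had footprint counts of 0, 0 and 0 in DMSO and 3, 3 and 3 in actD at 72 h. At 6 h it had 2, 0 and 0 in DMSO and 0, 0 and 1 in actD. The part of DLK2 in the ABCC10 footprints was not tested.

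**Figure D4:**
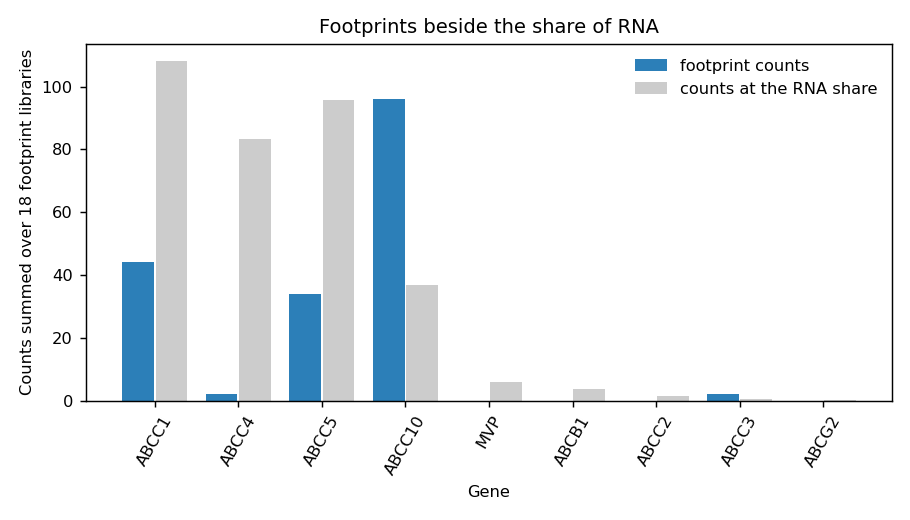
Footprint counts summed over 18 libraries (blue bars) beside the counts each gene would have at its share of RNA (grey bars), on an axis that starts at 0. ABCC10 reaches 96 where its RNA share gives 36.8, and ABCC4 reaches 2 where its RNA share gives 83.3.

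ABCC10 at 72 h was the only member with enough footprints to test. It had 7, 6 and 3 counts in DMSO and 19, 9 and 17 in actD, and after scaling 15.8, 20.1 and 37.3 CPM against 28.4, 24.5 and 20.2 CPM, so the groups overlapped, where 35.7% of all genes did not. The DMSO footprint libraries were shallower, with a mean total of 269600 counts against 631500 in actD, and the 37.3 CPM of DMSO library 3 rests on 3 counts. The log2 fold change was 0.24 (SE 0.423, interval -0.74 to 1.21, edgeR adjusted p = 0.742) where 3.79% of all genes were called. The change in footprints relative to RNA, its translational efficiency, was -0.06 (SE 0.471, interval -1.08 to 0.96, edgeR adjusted p = 0.981) where 0.433% of all genes were called. At 6 h and 2 weeks no member could be tested in footprints, with 13 and 22 ABCC10 counts in 6 libraries each.

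The other ABC genes, a list of 40 members of the family, gave 0 calls in RNA in either direction by edgeR at any time. Of 30, 30 and 29 tested at 6 h, 72 h and 2 weeks, 2, 6 and 5 had an unadjusted p under 0.05. The shares over all genes were 8.21%, 13.1% and 8.93%. Median log2 fold changes of the list were -0.01, 0.29 and -0.05, beside 0.02, 0.02 and -0.02 over all genes. The smallest p-values belonged to TAP2, a subunit of the peptide pump of antigen presentation, with 0.43 at 2 weeks (SE 0.116, edgeR adjusted p = 0.425), and to ABCF3 with -0.41 at 2 weeks (SE 0.135, adjusted p = 0.484).

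In footprints at 72 h, where 3.79% of all genes were called, 1 of the 3 genes of this list that were tested fell, ABCF1, a factor of translation initiation without a membrane part. It had 26, 20 and 5 counts in DMSO and 7, 6 and 14 in actD, or 62.7 ± 4.14 against 14.5 ± 3.49 CPM (SD, n = 3). The log2 fold change was -2.10 (SE 0.327, edgeR adjusted p = 0.0427). DESeq2 gave an adjusted p of 0.0521, the unscaled library totals 0.231, and leaving out single libraries 0.0409 to 0.188.

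Of 20 regulators of transporter genes (transcription factors, nuclear receptors and chromatin enzymes), 0 were called by edgeR in RNA at any time. At an unadjusted p under 0.05 there were 4 of 19 at 6 h, 2 of 19 at 72 h and 4 of 18 at 2 weeks. The shares over all genes were 8.21%, 13.1% and 8.93%. Median log2 fold changes of the list were 0.02, -0.14 and -0.08, beside 0.02, 0.02 and -0.02 over all genes. The highest levels in vehicle at 6 h were those of YBX1, which encodes YB-1 (527.2 ± 76.2 per kb), and HDAC1, a histone deacetylase (53.0 ± 2.29 per kb). RXRA, the shared partner of many nuclear receptors, measured 33.2 ± 3.28 CPM in actD and 51.6 ± 3.90 in DMSO at 6 h (SD, n = 3), a log2 fold change of -0.64 (edgeR adjusted p = 0.235, DESeq2 adjusted p = 0.0107). TCF7L2, a factor of the Wnt pathway, measured 5.07 ± 0.778 and 9.76 ± 2.68 CPM, a log2 fold change of -0.94 (edgeR adjusted p = 0.388, DESeq2 adjusted p = 0.0219).

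The glutathione list holds 20 genes that make glutathione, attach it to substrates, or otherwise serve its synthesis or use. Several ABCC pumps export the glutathione conjugates. In RNA 0 of 20 were called by edgeR in the fits of single times. At 6 h, 72 h and 2 weeks, 1, 4 and 4 had an unadjusted p under 0.05, against 8.21%, 13.1% and 8.93% of all genes. The medians were 0.13, -0.11 and 0.03, beside 0.02, 0.02 and -0.02 over all genes. GSTP1 was the highest at 6 h, at 209.8 ± 55.7 per kb, followed by GPX1 at 79.2 ± 26.9. SLC7A11, the cystine importer that feeds glutathione synthesis, had 6.75 ± 1.40 CPM in actD and 58.9 ± 60.7 in DMSO at 72 h, a log2 fold change of -3.13 (edgeR adjusted p = 0.241, DESeq2 adjusted p = 0.00014, and 0.00257 from edgeR in 1 fit over all 18 RNA libraries), and the change was -1.84 without DMSO library 3. MGST1 at 6 h had a log2 fold change of 0.72 (edgeR adjusted p = 0.433).

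In footprints at 72 h, where 3.79% of all genes were called, 1 of 5 tested glutathione genes rose. GPX1, a glutathione peroxidase, had 4, 6 and 1 counts in DMSO and 38, 26 and 39 in actD, or 13.9 ± 5.67 against 57.9 ± 12.2 CPM (SD, n = 3). The log2 fold change was 2.04 (SE 0.423, edgeR adjusted p = 0.0473). The adjusted p was 0.074 with DESeq2, 0.271 with unscaled library totals, and 0.0409 to 0.245 when single libraries were left out.

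Vault partners of MVP were measured as 6 genes, of which 5 were tested at each time in RNA. Of these 0 were called by edgeR in the fits of single times. An unadjusted p under 0.05 was reached by 0, 1 and 1, against 8.21%, 13.1% and 8.93% of all genes. The medians were -0.09, -0.39 and -0.37, beside 0.02, 0.02 and -0.02 over all genes. PARP4, the vault poly(ADP-ribose) polymerase, had 28.6 ± 3.84 CPM in actD and 48.6 ± 6.81 in DMSO at 72 h, a log2 fold change of -0.76 (edgeR adjusted p = 0.265, DESeq2 adjusted p = 0.046, and 0.0176 from edgeR in 1 fit over all 18 RNA libraries). The vault RNA genes VTRNA1-3 and VTRNA1-2 had 102.4 ± 9.13 and 21.9 ± 2.81 per kb in vehicle at 6 h. VTRNA1-3 had a log2 fold change of 0.30 at 2 weeks (edgeR adjusted p = 0.618).

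Drug uptake transporters, a list of 18 genes, had 10, 9 and 10 genes tested in RNA, of which 0 were called by edgeR. An unadjusted p under 0.05 was reached by 1, 2 and 0, against 8.21%, 13.1% and 8.93% of all genes. The medians were -0.19, -0.47 and -0.07, beside 0.02, 0.02 and -0.02 over all genes. SLC31A1, a copper importer that also takes up platinum drugs, and SLC29A1, a nucleoside carrier, had the highest levels at 6 h, at 11.3 ± 0.391 and 5.55 ± 0.714 per kb. SLC19A1, the reduced folate carrier, had 18.6 ± 3.23 CPM in actD and 36.5 ± 3.70 in DMSO at 6 h, a log2 fold change of -0.97 (edgeR adjusted p = 0.144, DESeq2 adjusted p = 0.0001). SLC47A1, which moves organic cations, had a log2 fold change of -0.85 at 72 h (edgeR adjusted p = 0.288). Among the cell type markers the smallest p-values were those of SALL1 (1.46 at 72 h, edgeR adjusted p = 0.309), CITED1 (0.82 at 2 weeks, 0.607), SNAP25 (-0.46 at 72 h, 0.666) and GFAP (0.35 at 2 weeks, 0.83).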

How the data were processed

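Total RNA and ribosome footprints of WiT49 cells were sequenced in 36 libraries. The authors made and deposited 1 table per assay and time, whose values are taken as estimated counts per gene, one column a library and no pooling. HISAT2, StringTie and hg38 are named per the submitters' processing notes, without role, order or version, and the counting program, the handling of reads with several matches and the use of strand are not given in the sources used here. Small values in the 6 h and 2-week RNA data pile up at steps of 2.7 and 2.68 counts, so no floor for a count of 0 is given there.

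Identifiers were matched without their version to GENCODE release 29 (GRCh38), which paired 99.3% of them with a symbol. The labels name more than 1 kit for RNA extraction and RNA libraries without tying them to libraries, so that batch could not be examined. The deposited values were whole numbers already. Each assay and time was fitted alone with edgeR 4.0.16 in R 4.3.3 (limma 3.58.1): TMM scaling, filterByExpr, two-sided quasi-likelihood tests and Benjamini-Hochberg adjustment over all genes, called at an adjusted p under 0.05. Standard errors and 95% intervals were derived from the F statistic. Translational efficiency and differences between times were interaction terms. Level per kb is TMM-scaled CPM divided by merged exon length. Alternatives were DESeq2 1.42.0, library totals, no filter, a replicate block, 1 fit over all RNA libraries, counts divided by the step, treatment by title, and leaving out each library. Scripts were tested on simulated counts.

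The members and gene lists were chosen with earlier results of these data known. Outside the members, the genes named are those called in a comparison and, per list, the 2 with the highest level and the 2 with the smallest p. The genes most like ABCC1 and ABCC4 are the 3 with the highest Pearson correlation of log2(CPM + 0.5).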

Additional observations from a re-analysis of the deposited data

How the results depend on the processing

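No member was called in any of the 166 fits other than the 13 reported ones, of which 120 left out 1 library each. In footprints and translational efficiency at 6 h and 2 weeks, most of these fits tested no member, so none could be called there. For RNA at 2 weeks, the fit by titles turned the signs and kept the p-values. The smallest adjusted p of a member was 0.0817, for ABCC4 at 72 h in 1 edgeR fit over all 18 RNA libraries (0.0817 to 0.771 over its alternatives). Over all genes the counts of calls did depend on the tool: DESeq2 called 195, 590 and 163 genes in RNA at 6 h, 72 h and 2 weeks where edgeR called 0, 1 and 0, the 18-library fit called 1212 at 72 h, and unscaled library totals called 6 at 2 weeks. In footprints at 72 h edgeR called 92 genes, library totals 7, no filter 321 and the replicate block 0, and leaving out single libraries gave 0 to 282. With single libraries left out, RNA calls numbered between 0 and 6 at 6 h, between 0 and 3 at 72 h and between 2 and 10 at 2 weeks. For translational efficiency at 72 h the 10 calls became 125 with DESeq2, 0 with the block and 7 to 41 with single libraries left out. For the differences between times in RNA, 4 and 1 calls became 151 and 135 with DESeq2, 0 and 0 with the block, and 1 to 38 and 0 to 19 with single libraries left out.

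The replicate numbers were not taken to pair the samples, since in no comparison did every pair pass a correlation of deviations of 0.1. The actD and DMSO libraries of the same number gave 0.0743, 0.254 and 0.158 in RNA at 72 h. For RNA and footprint libraries of the same number at 72 h the values were 0.173, 0.176 and 0.408 in actD, all above 0.1, and 0.14, 0.0529 and 0.136 in DMSO. With the block no member was called, and the log2 fold change of ABCB1 was 0.707 at 6 h, 1.44 at 72 h and 0.843 at 2 weeks. ABCF1 and GPX1 footprints at 72 h both had an edgeR adjusted p of 0.142 in the block.

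With treatment taken from the titles, the 2-week log2 fold changes were -0.734 for ABCB1, -0.0421 for ABCC1, 0.302 for ABCC2, -0.0015 for ABCC4, 0.0184 for ABCC5, -0.0263 for ABCC10, 0.279 for MVP, -0.425 for TAP2, 0.413 for ABCF3, -0.298 for VTRNA1-3, -0.822 for CITED1 and -0.353 for GFAP, the ABCB1 difference between 2 weeks and 72 h was -2.18, and calls over all genes went to 198 for RNA at 2 weeks against 72 h and to 27 for translational efficiency at 2 weeks. Library totals in place of TMM moved the median of all genes at 2 weeks from -0.02 to -0.18 and gave -0.111 for ABCC1, -0.146 for ABCC4 and -0.126 for ABCC10, and at 6 h gave 0.0037 for MVP, which was 0.0191 in the block. Dividing counts by the step gave -0.0051 for ABCC4 at 2 weeks, the 18-library fit gave 0.004 for ABCC5 at 2 weeks, and DESeq2 gave 0.264 for the translational efficiency of ABCC10 at 72 h. The cause of these moves was not tested.

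Leaving out single libraries turned the sign of several uncalled values. At 6 h the log2 fold change ranged from -0.515 to 0.0738 for ABCC3, -0.184 to 0.0516 for ABCC10 and -0.142 to 0.201 for MVP. At 72 h it ranged from -0.324 to 0.222 for ABCC2, -0.124 to 0.252 for ABCC5, -0.558 to 0.363 for MVP and -0.724 to 0.113 for SNAP25, and for ABCC10 from -0.084 to 0.502 in footprints and -0.375 to 0.159 in translational efficiency. At 2 weeks it ranged from -0.715 to 0.532 for ABCC2, -0.0395 to 0.0679 for ABCC4, -0.0845 to 0.0299 for ABCC5 and -0.0398 to 0.142 for ABCC10, and for the ABCB1 difference between 2 weeks and 72 h from -1.06 to 0.0758. The log2 fold change of ABCB1 ranged from 0.629 to 0.77 at 6 h and from 0.997 to 1.73 at 72 h. Its sign could not turn there, because its groups did not overlap. The same holds for ABCC1 at 6 h and 72 h, ABCC2 at 6 h and ABCC4 at 72 h. At 2 weeks, by library name, the ABCB1 value ranged from 0.371 to 1.51. Footprint depth limits the members, since 8 of 9 could not be tested there at 72 h and all 9 at 6 h and 2 weeks.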
